A study of Mus musculus with 12 samples.

Results

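The genes described here are 10 members of the mitochondrial pathway of apoptosis, read by symbol from the tables of all 12 libraries: 7 that promote cell death (Bcl2l11, Bbc3, Pmaip1, Bid, Bax, Bak1 and Diablo) and 3 that inhibit it (Mcl1, Bcl2l1 and Bcl2). They are 10 of 35385 listed symbols. Of the 10, 9 are among the 12009 genes that reached 1 TPM (a transcript unit scaled to gene length and to the library's total) in at least 3 libraries and were tested, and Bid was not. The cells were oligodendrocyte progenitor cells (OPCs), the dividing precursors of the myelinating cells of the brain, made from mouse pluripotent stem cells. They were kept in DMEM/F12 with N2max, B27, Noggin, NT3, cAMP and IGF-1, and every group was then plated in differentiation-permissive medium for 1 h before exposure. For 4 h they received cetylpyridinium chloride (CPC), C12-C14-alkyl(ethylbenzyl)dimethylammonium chloride (AEBDAC), methyltrioctylammonium chloride (MTOAC) or vehicle (DMSO), with 3 libraries in each group. Each compound was given at its own IC75, so concentrations, which the labels do not state, differed between compounds. The labels name neither a strain or cell line nor separate cultures behind the 3 libraries of a group, so p-values measure only the spread between libraries.

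In this pathway the BH3-only proteins sense damage or loss of survival signals and act on their relatives at the mitochondrial outer membrane. Bcl2l11 encodes BIM, Bbc3 encodes PUMA, Pmaip1 encodes NOXA, and Bid encodes a BH3-only protein that is activated by cleavage. When the inhibitors MCL1, BCL-XL (from Bcl2l1) and BCL2 no longer hold them in check, the effectors BAX and BAK (from Bak1) open the membrane and release cytochrome c and SMAC (from Diablo), which relieves caspases of their inhibitors. Much of this pathway is controlled at the level of protein, so transcript levels describe only what is available to it.

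After 4 h most transcripts of this machinery did not differ from vehicle by more than the spread between libraries allowed to be called. Bcl2l11 and Diablo were called lower with MTOAC, and no member was called higher with any compound. Both calls were lost in every fit that left out a library of the comparison and under quantile normalization. The means of Bcl2l11, Diablo, the inhibitor Bcl2l1, Pmaip1 and Bak1 lay below that of vehicle with each of the 3 compounds, those of Pmaip1 and Bak1 with overlapping libraries throughout and with fitted signs that turned under some alternatives. Bax, the member with the highest listed TPM, and Bcl2 stood within 0.21 log2 of vehicle. Whether fewer cells of one kind or less RNA per cell lies behind a lower level cannot be told apart in bulk RNA.

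The start sites of Bcl2l11, Diablo and Bcl2l1, the 3 members with the smallest p against vehicle with each compound, differ in base composition, and the 250 bases before them are shown for that reason, 5′ to 3′ on the gene's own strand (RefSeq, GRCm38.p6). Capitals mark matches, on either strand, to the 7 motifs searched. These were the GC box (GGGCGG), the CCAAT box (CCAAT), the cAMP response element (TGACGTCA), a C/EBP-ATF element (TGATGCAA), a FOXO element (GTAAACA), the E box (CACGTG) and the ETS core (CCGGAA).
Bcl2l11, chr2:128125788-128126037, plus strand: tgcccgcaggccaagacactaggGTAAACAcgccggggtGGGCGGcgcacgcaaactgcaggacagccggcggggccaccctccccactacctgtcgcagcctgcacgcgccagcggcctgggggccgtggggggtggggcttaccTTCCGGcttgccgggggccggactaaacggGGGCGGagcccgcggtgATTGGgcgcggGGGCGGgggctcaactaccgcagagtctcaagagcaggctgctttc
Diablo, chr5:123524165-123524414, minus strand: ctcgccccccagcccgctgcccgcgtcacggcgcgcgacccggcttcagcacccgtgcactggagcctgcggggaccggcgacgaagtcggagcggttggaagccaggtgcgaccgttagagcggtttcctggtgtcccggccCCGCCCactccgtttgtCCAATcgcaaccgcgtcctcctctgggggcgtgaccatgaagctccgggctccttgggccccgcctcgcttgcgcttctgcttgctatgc
Bcl2l1, chr2:152831729-152831978, minus strand: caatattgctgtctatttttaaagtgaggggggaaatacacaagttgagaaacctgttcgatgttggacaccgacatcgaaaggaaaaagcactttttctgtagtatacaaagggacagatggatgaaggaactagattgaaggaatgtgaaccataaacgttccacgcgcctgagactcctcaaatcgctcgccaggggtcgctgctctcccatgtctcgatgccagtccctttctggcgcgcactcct

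The window before Bcl2l11 had a GC content of 72% and 24 CpG dinucleotides, and that before Diablo 70.4% and 30, against a median GC content of 52.4% over all 32851 windows of this length. The window before the outermost start of Bcl2l1 had 47.6% and 12 CpG. The Bcl2l11 window held 3 GC boxes, 1 CCAAT box, 1 FOXO element and 1 ETS core, and the Diablo window held 1 GC box and 1 CCAAT box. GC boxes occur in 32.7% of all windows, CCAAT boxes in 33.8%, ETS cores in 12% and the FOXO element in 3.17%. None of the 7 motifs was found in the Bcl2l1 window, and none of the 3 windows held the cAMP response element (1.55% of all windows), the C/EBP-ATF element (0.791%) or the E box (6.02%). A match is a description of letters, not of a bound site. RefSeq lists other start sites for Bcl2l11 and Bcl2l1 besides those shown, and 9 of the 10 members had a window. The other Bcl2l11 window, at chr2:128127325-128127574, held 2 GC boxes and 2 CCAAT boxes, but neither the FOXO element nor the ETS core.

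In the annotation of GRCm38 (GENCODE M21), the assembly of mm10, Bcl2l11 lies at chr2:128126038-128162547 on the plus strand, Diablo at chr5:123509765-123524176 on the minus strand and Bcl2l1 at chr2:152780668-152831728 on the minus strand. Exons of Diablo overlap B3gnt4 on the opposite strand by up to 759 bases and Gm49027 on the same strand by up to 626 bases. These neighbours were listed at 0.188 to 2.07 TPM and 0 to 1.72 TPM over the 12 libraries, against at least 37.5 TPM for Diablo. Exons of Bak1 overlap those of Ggnbp1 (257 bases, opposite strand, 1.53 to 7.29 TPM), and exons of Bid overlap those of Bcl2l13 (628 bases, opposite strand, 40.4 to 70.2 TPM). The library kit is not described as marking strand, so reads in these overlaps are uncertain, most of all for Bid and Bak1.

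The libraries carried the markers of their label. All 8 OPC markers, among them Olig1, Olig2, Sox10 and Pdgfra, reached 1 TPM in at least 3 libraries, and none of the 6 microglial and myeloid markers did, with Itgam at 1.67 TPM in CPC library 1 their highest value. The summed OPC markers ranged over 1577 to 1728 TPM with CPC, 1458 to 1726 TPM with AEBDAC, 1248 to 1357 TPM with MTOAC and 1967 to 2347 TPM with vehicle. The largest part was Olig1, at 704 to 855, 570 to 819, 456 to 613 and 1016 to 1284 TPM in this order. Olig1, Gpr17 and Pdgfra were wholly below vehicle with each compound, as for 10.1% of all tested genes. Olig2, Sox10, Ptprz1 and Cspg4 overlapped vehicle with each compound, and Nkx2-2 only with CPC. Of the 8 OPC markers, 0 were called lower with CPC, 1 with AEBDAC and 3 with MTOAC. Over all tested genes 1.27% were called in either direction with AEBDAC, and 5.75% were called lower with MTOAC. The median log2 difference of these markers was -0.29, -0.39 and -0.81 with CPC, AEBDAC and MTOAC. The 5 neuronal markers summed to 324 to 389, 307 to 345, 258 to 341 and 424 to 470 TPM in the same order of groups. Most of that sum was Map2, at 297 to 349, 272 to 305 and 234 to 313 TPM with CPC, AEBDAC and MTOAC and 388 to 431 TPM with vehicle, while Tubb3, Rbfox3, Snap25 and Syt1 overlapped vehicle in each group. The 5 astrocyte markers summed to 15.2 to 51.8 TPM over all 12 libraries, and 4 of them reached 1 TPM in at least 3 libraries. By the same rule 2 of 5 mature oligodendrocyte and 2 of 5 pluripotency markers reached it, and the pluripotency gene Pou5f1 was listed at 9.64 TPM in MTOAC library 3, at 7.83 TPM in vehicle library 1 and at 0 elsewhere. The median tested gene stood at -0.17 log2 with CPC, -0.16 with AEBDAC and -0.22 with MTOAC relative to vehicle. The part of these shifts in the values below was not tested. One vehicle library (number 1) listed the mitochondrial gene mt-Nd3 at 0, against at least 8716 TPM in the other 11. Actb, a cytoskeletal actin, and Eef1a1, a translation factor, usually among the highest transcripts of a cell, reached no more than 76.2 and 63.2 TPM. The listed TPM of a library summed to between 772636 and 797758, below the full total to which the unit is scaled. Whether each symbol holds all the transcripts of its gene was not tested, so levels of different genes are compared here only as listed.

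Of the 9 tested members, 0 of 9 were called at an adjusted p under 0.05 with CPC, 0 of 9 with AEBDAC and 2 of 9 with MTOAC, both lower (limma on log2(TPM + 1), Benjamini-Hochberg over all tested genes). Over all tested genes the called share in either direction was 0.0666% with CPC, 1.27% with AEBDAC and 6.54% with MTOAC, and 5.75% were called lower with MTOAC. At an unadjusted p under 0.05, limma counted 2, 3 and 3 members with CPC, AEBDAC and MTOAC, beside 13.6%, 19.2% and 24.4% of all tested genes. No test of the list as a whole was made. The 3 libraries did not overlap those of vehicle for 2 members with CPC (background 20.6%), 4 with AEBDAC (background 24.9%) and 3 with MTOAC (background 26.4%). Of these, 2, 3 and 3 were wholly below vehicle, beside 18%, 19.2% and 22.4% of all tested genes. The median log2 difference over the 6 tested promoters was -0.14 with CPC, -0.18 with AEBDAC and -0.35 with MTOAC, and over the 3 inhibitors 0.06, 0.09 and 0.21, beside the medians of all genes given above. All 3 comparisons share the vehicle libraries.

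**Figure D1:**
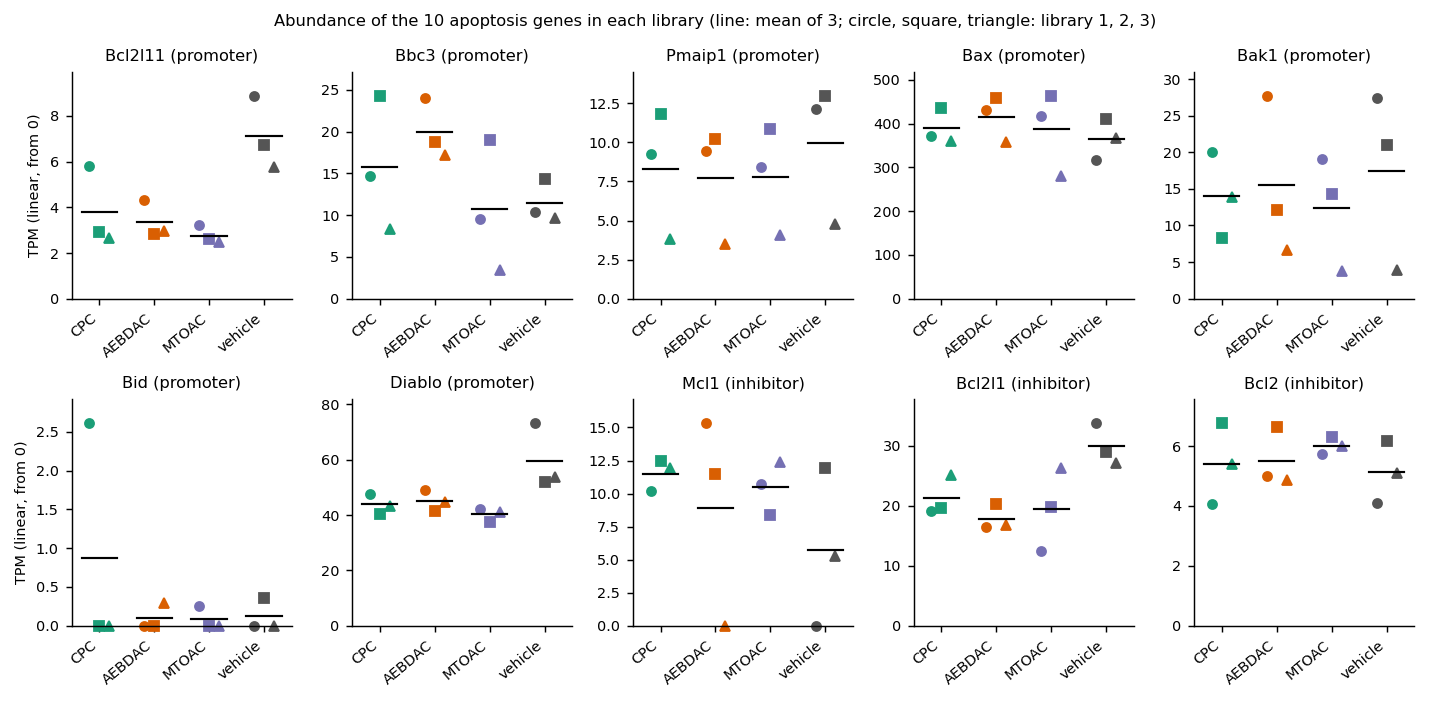
TPM of the 10 members in each library, on a linear axis of its own for each gene, with CPC, AEBDAC, MTOAC and vehicle from left to right; circles, squares and triangles are libraries 1, 2 and 3, and lines are group means. Diablo and Bcl2l1 show all 9 compound libraries below all 3 vehicle libraries, as do 10.1% of all tested genes. Mcl1 and Bid show libraries listed at 0.

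Among the BH3-only genes, Bcl2l11 was the only one called, with MTOAC. Its libraries held 5.81, 2.94 and 2.65 TPM with CPC, 4.30, 2.82 and 2.96 TPM with AEBDAC, 3.22, 2.59 and 2.47 TPM with MTOAC and 8.86, 6.72 and 5.74 TPM with vehicle. In 8 of the 9 compound libraries it was below every vehicle library, and CPC library 1 lay just above the lowest vehicle library. All 9 were below every vehicle library for 10.1% of all tested genes, and the share at 8 of 9 was not counted. The means were 3.80 ± 1.75, 3.36 ± 0.817 and 2.76 ± 0.402 TPM with CPC, AEBDAC and MTOAC, against 7.11 ± 1.59 TPM with vehicle (SD, n = 3 each), or 53.5%, 47.3% and 38.8% of the vehicle mean.

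With MTOAC, Bcl2l11 fell by 1.10 log2 (SE 0.27, 95% interval -1.69 to -0.50, adjusted p = 0.0400). The fitted log2 differences with CPC and AEBDAC were -0.80 (interval -1.39 to -0.20, adjusted p = 0.253) and -0.89 (interval -1.49 to -0.29, adjusted p = 0.115), neither past the threshold. The MTOAC call was lost in each of the 6 fits that left out 1 library of the comparison, where the difference lay between -1.22 and -0.95 and the adjusted p between 0.0643 and 0.116. It was also lost under quantile normalization (-0.80, adjusted p = 0.0995).

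Bbc3, which encodes PUMA and is known as a target of p53 and of stress signalling, was listed at 14.6, 24.2 and 8.33 TPM with CPC, 24, 18.8 and 17.2 TPM with AEBDAC, 9.59, 19.0 and 3.49 TPM with MTOAC and 10.4, 14.4 and 9.72 TPM with vehicle. The 3 AEBDAC libraries were above all vehicle libraries, while the CPC and MTOAC libraries lay on both sides of them. The shares of all tested genes whose libraries stood wholly above vehicle were 5.65% with AEBDAC and 2.58% and 3.99% with CPC and MTOAC. The fitted log2 differences of Bbc3 were 0.32 with CPC (adjusted p = 0.809), 0.75 with AEBDAC (interval -0.30 to 1.80, adjusted p = 0.420) and -0.33 with MTOAC (adjusted p = 0.730). Without MTOAC library 3 the last one was 0.24, so its sign rests on that library, and without CPC library 2 the first one was -0.03.

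Pmaip1, which encodes NOXA, the BH3-only protein that binds MCL1, varied with library number more than with compound. The libraries held 9.26, 11.8 and 3.81 TPM with CPC, 9.42, 10.2 and 3.50 TPM with AEBDAC, 8.43, 10.9 and 4.09 TPM with MTOAC and 12.2, 13.0 and 4.75 TPM with vehicle. Library 3 was the lowest of its group in all 4 groups, 0.70 to 0.84 log2 below its group mean, and library 2 the highest. The fitted log2 differences from vehicle were -0.25, -0.34 and -0.30 with CPC, AEBDAC and MTOAC (adjusted p = 0.869, 0.765 and 0.77), and the interval of the CPC difference ran from -1.35 to 0.86.

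Bak1 shared this pattern in 3 of the groups, with library 3 lowest under AEBDAC, MTOAC and vehicle, and library 1 highest in all 4. For Bcl2l11 library 1 was likewise the highest of each group, by 0.17 to 0.56 log2 above the group mean. The labels do not say what the library numbers stand for. Over all tested genes, CPC and vehicle libraries that bear the same number deviated together (r = 0.34, 0.31 and 0.23 for numbers 1, 2 and 3).

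**Figure D2:**
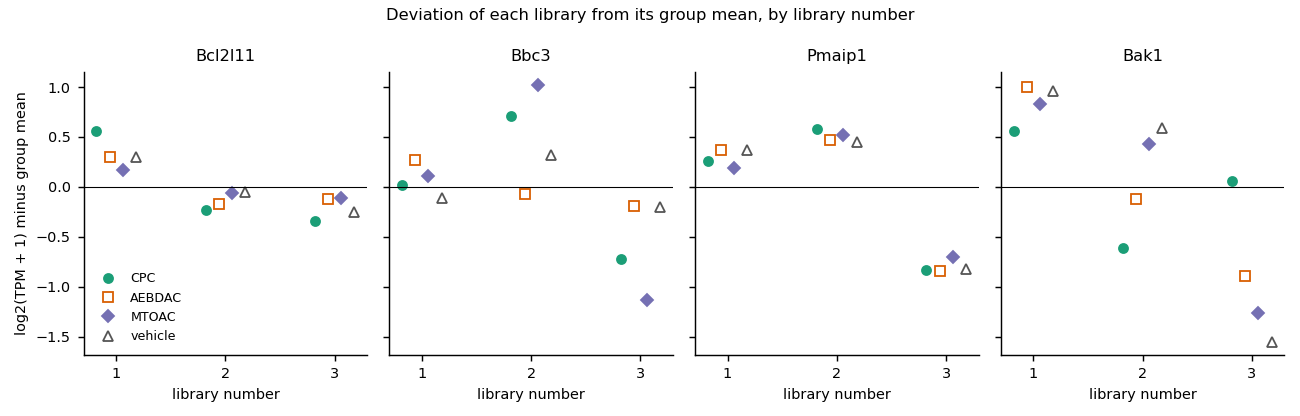
Deviation of each library from the mean of its group, on the log2(TPM + 1) scale, against the library number, for Bcl2l11, Bbc3, Pmaip1 and Bak1; symbols are the 4 groups. For Pmaip1 library 3 sits below its group mean in all 4 groups, by 0.70 to 0.84 log2, and for Bcl2l11 library 1 sits above it in all 4.

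With the library number as a block in the limma fit of all 12 libraries, the CPC comparison still called 0 of the 9 members. The adjusted p was 0.0552 for Bcl2l11 and 0.0685 for Diablo, while 184 genes were called in place of 8, a share of 1.53%. This block was shared with AEBDAC and MTOAC, so it is not a paired fit of CPC and vehicle alone. Against vehicle, libraries 1, 2 and 3 gave r = 0.078, 0.25 and 0.035 with AEBDAC and -0.026, 0.35 and -0.19 with MTOAC.

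Bid, whose protein links death receptors to mitochondria, was listed at 0 in 8 of the 12 libraries. Its values were 2.61, 0 and 0 TPM with CPC, 0, 0 and 0.290 TPM with AEBDAC, 0.249, 0 and 0 TPM with MTOAC and 0, 0.361 and 0 TPM with vehicle. Each group had 2 libraries at 0, and only CPC library 1 passed 1 TPM, so no fold change was computed. An exact 0 in these files can be a failed estimate, so the values do not show that Bid was absent.

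Of the effectors, Bax had by far the highest listed TPM of the members, with a mean above that of at least 98.05% of all tested genes in each of the 4 groups. Bax was listed at 372, 437 and 361 TPM with CPC, 431, 458 and 357 TPM with AEBDAC, 417, 463 and 282 TPM with MTOAC and 317, 411 and 368 TPM with vehicle. All groups overlapped. The means were 389.6 ± 41.2, 415 ± 52.0 and 387 ± 94.2 TPM with CPC, AEBDAC and MTOAC, against 365 ± 47.3 TPM with vehicle (SD, n = 3 each).

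The log2 differences of Bax were 0.10 (interval -0.30 to 0.49), 0.18 (interval -0.21 to 0.58) and 0.06 (interval -0.34 to 0.46), with adjusted p = 0.856, 0.617 and 0.876 in limma. At this precision a change of Bax by more than 0.58 log2 upward or 0.34 log2 downward lay outside all 3 intervals.

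Bak1, the second effector, was listed at far lower TPM and was much more variable. Its libraries held 20.0, 8.35 and 13.9 TPM with CPC, 27.7, 12.2 and 6.71 TPM with AEBDAC, 19.1, 14.3 and 3.74 TPM with MTOAC and 27.4, 20.9 and 3.98 TPM with vehicle. The vehicle libraries alone spanned nearly the whole range of the other groups. The fitted differences were -0.03, -0.03 and -0.36 log2 with intervals of 1.59 log2 on either side, so no statement on its direction can be made, and the signs with CPC and AEBDAC turned under quantile normalization (0.19 and 0.18).

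Diablo, which encodes SMAC, the antagonist of the caspase inhibitors that leaves the mitochondria with cytochrome c, was the second member called, with MTOAC. Its libraries held 47.7, 40.5 and 43.3 TPM with CPC, 49.0, 41.7 and 44.7 TPM with AEBDAC, 42.2, 37.5 and 41.2 TPM with MTOAC and 73.2, 52.0 and 53.7 TPM with vehicle. All 9 compound libraries were below all 3 vehicle libraries, as for 10.1% of all tested genes. Vehicle library 1 stood apart at the top. The means were 43.9 ± 3.62, 45.1 ± 3.71 and 40.3 ± 2.49 TPM with CPC, AEBDAC and MTOAC, against 59.6 ± 11.8 TPM with vehicle (SD, n = 3 each), or 73.5%, 75.7% and 67.6% of the vehicle mean.

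With MTOAC, Diablo fell by 0.54 log2 (SE 0.14, interval -0.85 to -0.23, adjusted p = 0.0470), which was 0.32 log2 below the median tested gene. With CPC and AEBDAC the differences were -0.42 (interval -0.73 to -0.11, adjusted p = 0.252) and -0.38 (interval -0.69 to -0.07, adjusted p = 0.182). The MTOAC call was lost in each of the 6 fits without 1 library (adjusted p = 0.0612 to 0.142) and under quantile normalization (-0.35, adjusted p = 0.0945). Without vehicle library 1, the difference with MTOAC was -0.38 (adjusted p = 0.112), and those with CPC and AEBDAC were -0.27 and -0.23.

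**Figure D3:**
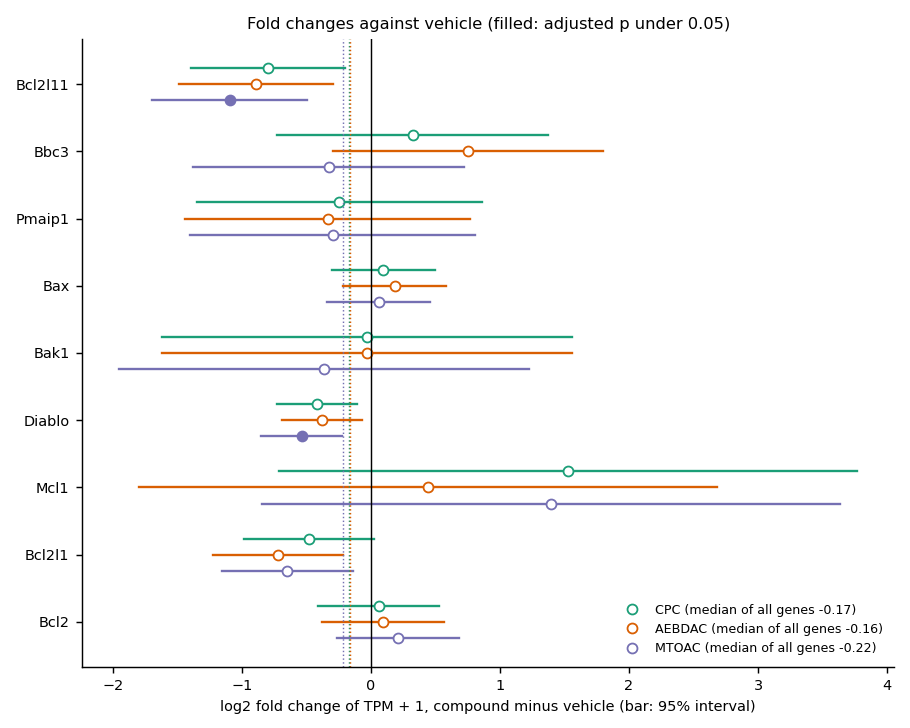
Fitted log2 differences of the 9 tested members from vehicle on the log2(TPM + 1) scale, with 95% intervals, for CPC, AEBDAC and MTOAC; filled symbols passed an adjusted p under 0.05 in limma, and dotted lines are the medians of all tested genes. The 2 filled symbols are Bcl2l11 (-1.10) and Diablo (-0.54) with MTOAC, and the widest intervals are those of Mcl1 and Bak1.

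Of the inhibitors, Bcl2l1 had the highest listed TPM and stood below vehicle in every compound library. Its values were 19.1, 19.6 and 25.1 TPM with CPC, 16.4, 20.3 and 16.8 TPM with AEBDAC, 12.4, 19.8 and 26.3 TPM with MTOAC and 33.8, 29.0 and 27.2 TPM with vehicle. All 9 compound libraries were below all 3 vehicle libraries, as they were for Diablo and for 10.1% of all tested genes. MTOAC library 3 was the highest of these 9, within 1 TPM of the lowest vehicle library. The fitted log2 differences were -0.48 with CPC (adjusted p = 0.387), -0.72 with AEBDAC (interval -1.23 to -0.22, adjusted p = 0.127) and -0.65 with MTOAC (interval -1.15 to -0.14, adjusted p = 0.110), none past the threshold. Without MTOAC library 3 the MTOAC difference was -0.88 and passed it (adjusted p = 0.0453), and without MTOAC library 1 it was -0.37.

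Mcl1, a short-lived inhibitor whose transcript turns over quickly, was listed at 10.2, 12.4 and 11.9 TPM with CPC, 15.3, 11.5 and 0 TPM with AEBDAC, 10.7, 8.36 and 12.4 TPM with MTOAC and 0, 11.9 and 5.26 TPM with vehicle. It was listed at 0 in AEBDAC library 3 and vehicle library 1, while the other 10 libraries held at least 5.26 TPM. Such zeros are rare at this level: of the 8228 tested genes that averaged 5 TPM or more, 66 (0.802%) were listed at 0 in at least 1 library. An exact 0 in estimated TPM can be a failed estimate, and the files hold no counts to check it.

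The fitted log2 differences of Mcl1 were 1.53 with CPC (interval -0.71 to 3.77), 0.44 with AEBDAC and 1.39 with MTOAC (adjusted p = 0.537, 0.855 and 0.439), and they rested on the zeros. Without vehicle library 1 they were 0.47, -0.61 and 0.34, and without AEBDAC library 3 the AEBDAC difference was 1.72. The sign with AEBDAC thus turned with single libraries, and the differences with CPC and MTOAC stayed positive but were much smaller without vehicle library 1.

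Bcl2, the founding member of the family and by listed mean TPM the lowest inhibitor in each group, was not called with any compound. It was listed at 4.07, 6.77 and 5.41 TPM with CPC, 5.0, 6.65 and 4.88 TPM with AEBDAC, 5.72, 6.32 and 6.00 TPM with MTOAC and 4.09, 6.18 and 5.10 TPM with vehicle. All groups overlapped, and library 2 was the highest of each. The log2 differences were 0.06 (interval -0.41 to 0.53), 0.09 (interval -0.38 to 0.56) and 0.21 (interval -0.26 to 0.68), with adjusted p = 0.933, 0.858 and 0.598 with CPC, AEBDAC and MTOAC.

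By listed mean TPM, a unit per length, and within the limit on completeness given above, Bax came first and Diablo second in every group, and Bid came last. In vehicle, Bcl2l1 came next at 30.0 ± 3.39 TPM, followed by Bak1 at 17.5 ± 12.1, Bbc3 at 11.5 ± 2.51, Pmaip1 at 9.95 ± 4.52, Bcl2l11 at 7.11 ± 1.59 and Bcl2 at 5.12 ± 1.05 TPM (SD, n = 3), with Mcl1 at 0, 11.9 and 5.26 TPM. Each neighbour in this order from Bcl2l1 down to Bcl2 overlapped the next in its vehicle libraries, Bcl2l1 and Bak1 through 1 library of Bak1 at 27.4 TPM, whereas every vehicle library of Bax and of Diablo was above all those of the members after them. With each compound Bcl2l11 stood below Bcl2 in mean, at 3.80, 3.36 and 2.76 TPM with CPC, AEBDAC and MTOAC for Bcl2l11 against 5.41, 5.51 and 6.01 TPM for Bcl2. With MTOAC every library of Bcl2l11 was below every library of Bcl2, whereas in vehicle 2 of the 3 were above all 3.

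Summed over the 7 promoters, the level was 476 ± 46.2 TPM with CPC, 507 ± 64.5 TPM with AEBDAC and 461 ± 110 TPM with MTOAC, against 471 ± 41.3 TPM with vehicle (SD, n = 3 each). Bax alone made up 70.6% to 84.6% of this sum in the 12 libraries. Without Bax the sums were 86.6 ± 14.1, 91.8 ± 20.2 and 74.0 ± 16.5 TPM with the 3 compounds, against 106 ± 27.2 TPM with vehicle. The 3 inhibitors summed to 38.2 ± 4.59, 32.2 ± 9.19 and 36 ± 8.02 TPM with CPC, AEBDAC and MTOAC, against 40.8 ± 5.41 TPM with vehicle. The libraries of each compound overlapped those of vehicle in all these sums.

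The promoter sum exceeded the inhibitor sum by 14.2, 13.5 and 10.2 times with CPC, 14.9, 14.2 and 20.0 times with AEBDAC, 17.3, 15.9 and 7.53 times with MTOAC and 11.9, 11 and 11.9 times with vehicle. The 3 AEBDAC libraries were above all vehicle libraries, and each of the other compounds had 1 library below them. The AEBDAC value of 20.0 is that of library 3, in which Mcl1 was listed at 0. Such a ratio of transcripts is dominated by Bax and says nothing of the proteins.

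The compounds were next compared with each other, in 3 pairs of groups. CPC and AEBDAC carry a long alkyl chain on a quaternary nitrogen that is part of a pyridinium ring in CPC and bears an ethylbenzyl group in AEBDAC, while MTOAC carries 3 octyl chains and a methyl group. Of the 9 members, 0 were called between AEBDAC and CPC, 0 between MTOAC and CPC and 0 between MTOAC and AEBDAC, where 0% of all tested genes were called in each pair by limma. At an unadjusted p under 0.05 the members numbered 0, 0 and 1, and all tested genes 211 (1.76%), 449 (3.74%) and 307 (2.56%).

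The 1 member was Bbc3, at 9.59, 19.0 and 3.49 TPM with MTOAC and 24, 18.8 and 17.2 TPM with AEBDAC. Its log2 difference was -1.08 (interval -2.13 to -0.03, unadjusted p = 0.0445, adjusted p = 1). Of the 3 MTOAC libraries, 2 were below all AEBDAC libraries. For Bcl2l11 the differences were -0.10 between AEBDAC and CPC (interval -0.69 to 0.50), -0.30 between MTOAC and CPC (interval -0.90 to 0.30) and -0.20 between MTOAC and AEBDAC (interval -0.80 to 0.40). For Diablo they were 0.04 (interval -0.27 to 0.35), -0.12 (interval -0.43 to 0.19) and -0.16 (interval -0.47 to 0.15) in the same pairs. Differences of the size that MTOAC showed from vehicle for Bcl2l11 were outside these intervals, but smaller differences between compounds were within them, so the compounds are not shown to act alike. That Bcl2l11 and Diablo passed the threshold with MTOAC and with neither other compound therefore does not show a difference between compounds.

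The genes around the members were read from 9 lists of related genes. Among 7 tested relatives of the BCL2 family, 0 were called with CPC, 0 with AEBDAC and 0 with MTOAC, with list medians of -0.35, -0.36 and -0.40 log2. The smallest p belonged to Bnip3, a BH3-like gene of mitophagy and hypoxia, with CPC (-0.60, adjusted p = 0.238) and AEBDAC (-0.50, adjusted p = 0.194), and to Bcl2l12 with MTOAC (-1.17, adjusted p = 0.0641). Bcl2l12 was listed at 4.69, 2.28 and 9.47 TPM with MTOAC and 12.8, 10.6 and 13.0 TPM with vehicle.

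Of the 6 apoptosome and released proteins, 0 were called with any compound, and the medians were -0.16, -0.41 and -0.42 log2 with CPC, AEBDAC and MTOAC. Aifm1, a flavoprotein of the mitochondrial intermembrane space, had the smallest p each time. It was listed at 28.1, 25.4 and 24.5 TPM with CPC, 25.5, 17.9 and 22.3 TPM with AEBDAC, 24.1, 19.4 and 24.9 TPM with MTOAC and 41.4, 33.5 and 30.0 TPM with vehicle. All 9 compound libraries were below the vehicle libraries, as for 10.1% of all tested genes. The log2 differences in limma were -0.40 (adjusted p = 0.335), -0.65 (adjusted p = 0.0777) and -0.59 (adjusted p = 0.0586).

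Downstream, 1 of 4 tested caspases was called with AEBDAC and with MTOAC, and 1 of 4 caspase inhibitors with MTOAC, all lower, and none of either list with CPC. Casp6, an executioner caspase, was listed at 19.6, 19.1 and 14 TPM with CPC, 14.3, 11.4 and 14.4 TPM with AEBDAC, 12.5, 13.0 and 12.5 TPM with MTOAC and 37.3, 23.3 and 22.9 TPM with vehicle. It fell by 0.98 log2 with AEBDAC (adjusted p = 0.0454) and by 1.04 log2 with MTOAC (adjusted p = 0.0173). The AEBDAC call was lost in all 6 fits without 1 library and the MTOAC call in 2 of 6. Birc2, a ubiquitin ligase that restrains caspases and death receptor signalling and a target of SMAC, was listed at 9.22, 7.49 and 7.97 TPM with MTOAC and 15.7, 13.5 and 12.8 TPM with vehicle. It fell by 0.70 log2 (adjusted p = 0.0313), a call lost in all 6 such fits and under quantile normalization. With CPC the smallest p of the caspase inhibitors was that of Birc5 (-0.47, adjusted p = 0.359 in limma).

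Among 7 tested genes of the death receptor pathway, Fadd, its adaptor, fell with MTOAC by 0.94 log2 (adjusted p = 0.0463), at 2.47, 2.46 and 2.51 TPM against 7.03, 4.96 and 5.21 TPM with vehicle. Among 10 outer membrane channel and fission genes, Ppif, the cyclophilin of the permeability transition pore, fell with MTOAC by 0.71 log2 (adjusted p = 0.0440), at 25.8, 16.8 and 21.5 TPM against 41.5, 32 and 32.7 TPM with vehicle. Both calls were lost in all 6 fits without 1 library and under quantile normalization, and neither list had a call with CPC or AEBDAC. Oma1, a protease of the inner membrane, had the smallest p of the channel list with CPC (-0.59) and AEBDAC (-0.79).

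The genes of these lists that were called higher were Atf4, Trib3 and Sesn2. Of 7 tested transcription factors known to control BH3-only genes, Atf4, the main factor of the integrated stress response, rose with AEBDAC and MTOAC. Atf4 stood at 265, 384 and 359.6 TPM with CPC, 381, 444 and 445 TPM with AEBDAC, 366, 432 and 301 TPM with MTOAC and 132, 176 and 220 TPM with vehicle. All 9 compound libraries were above all vehicle libraries, as for 1.34% of all tested genes. The log2 differences were 0.94 with CPC (adjusted p = 0.120), 1.29 with AEBDAC (adjusted p = 0.0207) and 1.07 with MTOAC (adjusted p = 0.0162). The AEBDAC call was kept in 2 and the MTOAC call in 5 of the 6 fits without 1 library.

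Other factors of that list, named after their values were seen, were not called. Ddit3, which encodes CHOP, was listed at 8.04, 9.63 and 9.45 TPM with CPC, 10.8, 10.5 and 10.9 TPM with AEBDAC, 10.2, 13.5 and 21.5 TPM with MTOAC and 12.7, 8.25 and 4.49 TPM with vehicle. Its vehicle libraries spread over the range of the CPC and AEBDAC libraries, and the MTOAC difference was 0.80 log2 (adjusted p = 0.145). Trp53, which encodes p53, stood at -0.17, -0.30 and -0.22 log2, and Foxo3, a factor known to act on Bcl2l11, at -0.09, -0.01 and -0.16 log2 with CPC, AEBDAC and MTOAC. Jun was listed at 30.1, 51.1 and 52.5 TPM with CPC and 41.3, 69.8 and 73.1 TPM with AEBDAC. It held 53.8, 70.2 and 68.7 TPM with MTOAC and 34.6, 31.99 and 38.4 TPM with vehicle. Its libraries were wholly above vehicle with AEBDAC and MTOAC, as for 5.65% and 3.99% of all tested genes. E2f1 was wholly below vehicle with AEBDAC, at 0.856, 0.699 and 0.772 TPM against 2.09, 1.18 and 1.099 TPM.

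The regulator Trib3 was the gene in these lists with the largest difference. It encodes a pseudokinase induced in the integrated stress response, and it stood in the list on turnover of MCL1 and BH3-only proteins, none of whose other 6 tested genes was called with any compound. It was listed at 14.1, 23.2 and 23.8 TPM with CPC, 21, 30.6 and 40.4 TPM with AEBDAC, 25.0, 26.6 and 28.5 TPM with MTOAC and 2.45, 3.67 and 5.08 TPM with vehicle. It rose by 2.18 log2 with CPC (adjusted p = 0.0246), 2.73 with AEBDAC (adjusted p = 0.00279) and 2.58 with MTOAC (adjusted p = 0.00228). The AEBDAC and MTOAC calls held in all 6 fits without 1 library, and the CPC call in 2 of 6.

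Of 13 tested p53 targets other than the members, 1 rose and 1 fell with MTOAC and none was called with CPC or AEBDAC. Sesn2, a stress-induced regulator of growth signalling that is also a target of ATF4, was listed at 113, 139 and 104 TPM with MTOAC and 70.3, 73.4 and 46.1 TPM with vehicle, and rose by 0.91 log2 (adjusted p = 0.0359). Btg2, an antiproliferative immediate early gene, was listed at 47.6, 23.6 and 25.1 TPM with MTOAC and 150.3, 115 and 132 TPM with vehicle, and fell by 2.08 log2 (adjusted p = 0.0146). The Sesn2 call was kept in 1 and the Btg2 call in 5 of the 6 fits without 1 library. With AEBDAC their differences were 1.01 (adjusted p = 0.0525) and -1.72 (adjusted p = 0.0539). The list median stood at -0.19 log2 with MTOAC, beside -0.22 for all genes.

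**Figure D4:**
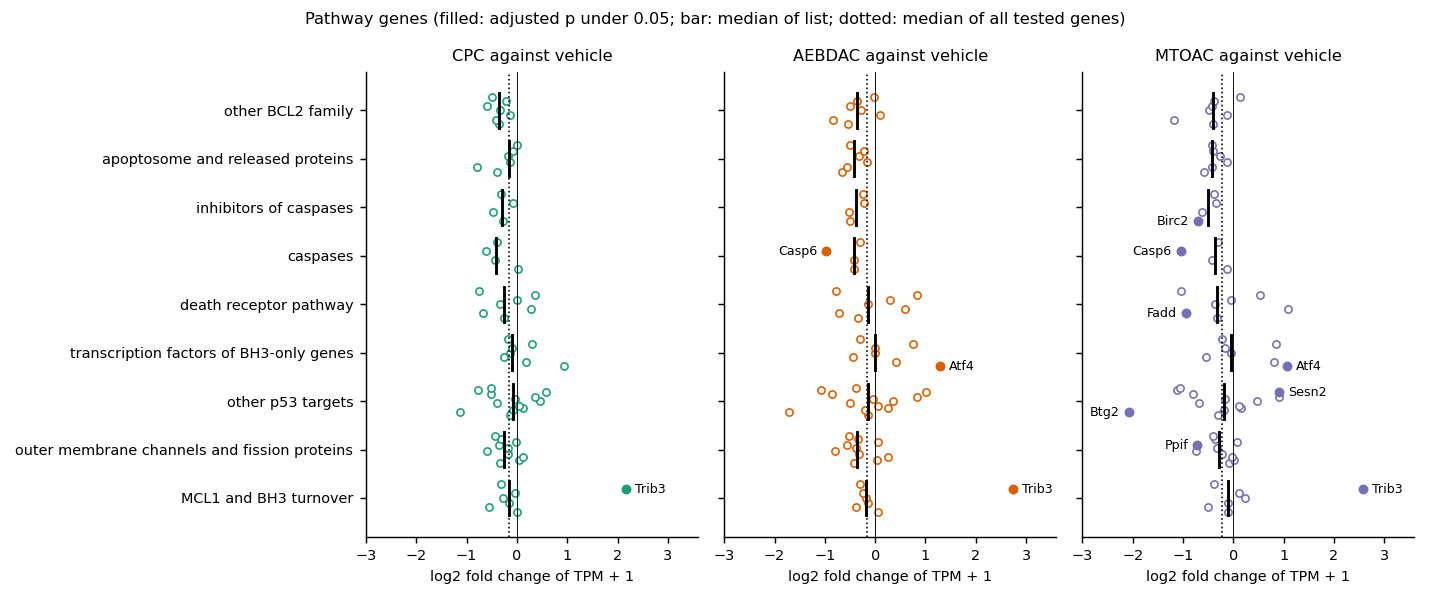
Fitted log2 differences from vehicle of the tested genes in the 9 lists of related genes, 1 panel for each of CPC, AEBDAC and MTOAC; filled symbols passed an adjusted p under 0.05 and are named, vertical bars are list medians and dotted lines the median of all tested genes. Trib3 is filled in all 3 panels and stands furthest to the right, at 2.18, 2.73 and 2.58 log2.

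Likeness to 4 members was read as the Pearson correlation of log2(TPM + 1) over the 12 libraries, as a description, since the libraries share groups and library numbers. Most like Bcl2l11 were Zfp46 (0.98), Samd10 (0.98) and Cirbp (0.97), an RNA-binding protein induced by cold. Cirbp was listed at 33.6, 19.8 and 20.9 TPM with CPC, 31.5, 24.9 and 21.4 TPM with AEBDAC, 22.5, 20.7 and 19.9 TPM with MTOAC and 65.9, 44.2 and 42.8 TPM with vehicle. Its compound libraries were all below vehicle, as for 10.1% of all tested genes. Library 1 was the highest of each group, as for Bcl2l11. Between members, the highest such correlation was that of Bcl2l11 with Diablo, at 0.91.

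Most like Pmaip1 were Ak1 (0.98), the p53 target Ccng1 (0.97) and Wnt7a (0.97). Ccng1 was listed at 199, 208 and 110.4 TPM with CPC, 169.7, 194 and 108 TPM with AEBDAC, 170.5, 178 and 118 TPM with MTOAC and 191, 236 and 119 TPM with vehicle. Library 3 was the lowest of every group for all 3, as for Pmaip1. Most like Bbc3 were Crlf2 (0.90), Ehmt2 (0.89) and Rbm8a (0.88), and most like Mcl1 were Spag7 (0.84), Ttc9b (0.84) and the histone gene Hist1h2ah (0.81), whose reads may be shared with near-identical copies. Spag7 was low in the libraries where Mcl1 was listed at 0, at 0.736 TPM in AEBDAC library 3 and 0 TPM in vehicle library 1.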

How the data were processed

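Salmon and build mm10 are named in the submitters' processing notes, and no version or annotation is stated there. Per the labels' protocols, poly(A) libraries were sequenced as 150 bp paired reads. The authors deposited TPM values for 35385 symbols in each of 12 libraries, of which 34858 matched GENCODE M21 symbols. TPM hold no record of depth, so precision here rests on the spread between libraries. Actb ranged over 31.6 to 76.2 TPM and Eef1a1 over 34.0 to 63.2 TPM, low for genes that most cells express strongly, and the cause was not tested.

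Groups were taken from the treatment labels. The filter kept genes at 1 TPM or more in 3 or more libraries, which were fitted with limma 3.58.1 in R 4.3.3 (trend and robust moderation, 1 fit of 12 libraries with 4 group means) on log2(TPM + 1), a scale that understates changes of low genes. Benjamini-Hochberg adjustment of two-sided p-values ran over the 12009 tested genes, with calls under 0.05 and 95% intervals. The fit was also run on simulated data with independent noise in each library. These held no effect of library number, so that run does not bear on the correlations between same-numbered libraries. With 3 libraries a side, the smallest p of an exact permutation test is 0.1.

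Pairing by library number, which comes from the sample titles, was accepted where residuals around the group means correlated above 0.1 for all 3 numbers. CPC with vehicle gave 0.34, 0.31 and 0.23. AEBDAC with CPC gave 0.28, 0.42 and 0.23, and MTOAC with AEBDAC gave 0.33, 0.36 and 0.30. The other 3 pairs of groups did not meet this. AEBDAC with vehicle gave 0.078, 0.25 and 0.035, MTOAC with vehicle -0.026, 0.35 and -0.19, and MTOAC with CPC 0.17, 0.40 and 0.091. Calls, intervals and p-values are those of the fit without library number, save where a block is named. This holds also for the pairs of groups that met the rule, so calls with CPC, in the lists too, leave pairing out. The block was fitted over all 12 libraries, also those of groups that did not meet the rule with vehicle. With the block, 0 genes were called between AEBDAC and CPC and between MTOAC and AEBDAC. Members and lists were chosen with earlier results of these data known. The rule for naming genes took all members, every called gene and the smallest p of each list per compound, and the 3 genes most like each of Bcl2l11, Bbc3, Pmaip1 and Mcl1; exceptions are stated. Alternatives were a pseudocount of 0.1, no filter, a filter at 5 TPM, quantile normalization, rescaling without mitochondrially encoded genes, the library number as a block, 6 libraries in the fit, and leaving out each library. Promoter windows came from RefSeq.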

Additional observations from a re-analysis of the deposited data

How the results depend on the processing

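Against vehicle, Bcl2l11, Diablo and Bcl2l1 kept a negative sign with all 3 compounds under every alternative run, as Bbc3 and Bax kept a positive sign with AEBDAC, Bcl2 with MTOAC, and Mcl1 with CPC and MTOAC. The other pairs of member and compound changed sign under at least 1 alternative. The count of members called was 0 with CPC throughout. With AEBDAC it was 2 with the replicate block and 1 with the replicate block and quantile normalization, where the numbers do not meet the pairing rule. With MTOAC it was 0 without a filter, under quantile normalization and with only 6 libraries in the fit, and 0 to 1 without 1 library. A call at 3 libraries a group thus turns on small changes of the adjusted p, and depth is unknown in TPM.

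The count of all genes called with CPC was 16 under quantile normalization (12 higher, 4 lower, against 4 and 4), 184 with the replicate block, 115 with the replicate block and quantile normalization, 0 with only 6 libraries and 1 to 5 without 1 library. With AEBDAC it was 38 without a filter, 1072 with the replicate block, 907 with the replicate block and quantile normalization, 3 with only 6 libraries and 9 to 104 without 1 library, and quantile normalization split it into 96 higher and 86 lower, against 47 and 106. With MTOAC it was 404 without a filter, 430 under quantile normalization (213 higher, 217 lower, against 95 and 690), 1904 with the replicate block, 1194 with the replicate block and quantile normalization, 17 with only 6 libraries and 149 to 573 without 1 library. Between compounds it was 1 without a filter and 1 with only 6 libraries for AEBDAC and CPC, 1 without a filter and 0 to 1 without 1 library for MTOAC and CPC, and 1 with only 6 libraries for MTOAC and AEBDAC.

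For the lists of related genes, whose alternatives were chosen after seeing the data, the count with CPC was 4 with the replicate block, 2 with quantile normalization as well, 0 with only 6 libraries and 0 to 1 without 1 library. With AEBDAC it was 5 at a filter of 5 TPM, 13 with the replicate block, 12 with quantile normalization as well, 0 with only 6 libraries and 1 to 3 without 1 library. With MTOAC it was 5 without a filter, 5 under quantile normalization, 17 with the replicate block, 1 with only 6 libraries and 1 to 6 without 1 library. The causes of these moves were not tested.

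The log2 difference of Bak1 with CPC turned positive at a pseudocount of 0.1 (0.0021), under quantile normalization (0.19, also with the replicate block) and when rescaled without mitochondrially encoded genes (0.022). That with AEBDAC turned under quantile normalization (0.18, also with the replicate block), as did that of Pmaip1 between MTOAC and CPC (0.022). Without 1 library, signs turned within these ranges. With CPC they were -0.032 to 0.69 for Bbc3, -0.66 to 0.17 for Pmaip1, -0.0024 to 0.19 for Bax, -0.80 to 0.45 for Bak1 and -0.090 to 0.22 for Bcl2. With AEBDAC they were -0.75 to 0.086 for Pmaip1, -0.81 to 0.45 for Bak1, -0.61 to 1.72 for Mcl1 and -0.035 to 0.21 for Bcl2. With MTOAC they were -0.84 to 0.24 for Bbc3, -0.71 to 0.055 for Pmaip1, -0.083 to 0.27 for Bax and -1.14 to 0.27 for Bak1. Between AEBDAC and CPC they were -0.26 to 0.19 for Bcl2l11, -0.51 to 0.33 for Pmaip1, -0.51 to 0.44 for Bak1, -0.020 to 0.10 for Diablo, -1.82 to 0.19 for Mcl1 and -0.13 to 0.18 for Bcl2. Between MTOAC and CPC they were -0.47 to 0.30 for Pmaip1, -0.18 to 0.18 for Bax, -0.75 to 0.30 for Bak1, -0.25 to 0.0041 for Mcl1, -0.40 to 0.11 for Bcl2l1 and -0.0096 to 0.30 for Bcl2. Between MTOAC and AEBDAC they were -0.38 to 0.39 for Pmaip1, -0.27 to 0.089 for Bax, -0.78 to 0.30 for Bak1, -0.33 to 1.69 for Mcl1 and -0.16 to 0.35 for Bcl2l1.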
